A study of Mus musculus with 38 samples.

Results

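Motile cilia and ependymal genes were followed across 38 RNA-seq libraries of adBNST, the anterodorsal division of a forebrain structure called the bed nucleus of the stria terminalis. It lies close to the lateral ventricle and is studied for its role in anxiety-like behaviour. The members were chosen by symbol. They comprise the Cfap, Dnah, Dnai, Tekt, Rsph and Spef families plus Foxj1, Ccdc153 and Tmem212, wherever the mean over the libraries reached 0.5 CPM (counts scaled to a common library total). Of 67 matching symbols, 64 reached that mean, among 25230 genes in the table. All 64 were among the 16309 genes that passed the filter on low counts. Tekt3 at 0.34 CPM and Rsph6a at 0.27 CPM lay below the minimum, as did Cfap97d1 at 0.012 CPM, while Dnah8 at 0.65 CPM was the lowest member kept.

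Motile cilia line the walls of the brain ventricles, where ependymal cells carry tufts of them and move cerebrospinal fluid. Each cilium is built on an axoneme of microtubule doublets around a central pair. Dynein arms on the doublets generate bending, radial spokes and the central apparatus regulate it, and proteins inside the doublets stabilise the tubules. The transcription factor Foxj1 drives the genes of this machinery, together with factors of the RFX family that bind the X-box in their promoters.

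The libraries came from adBNST microdissections of wild-type mice in 4 groups, and sequenced poly-A RNA. There were 9 libraries of stressed females (FS), 10 of control females (FC), 9 of stressed males (MS) and 10 of control males (MC). Stressed mice went through 6 weeks of chronic variable mild stress, a changing sequence of stressors such as disturbed lighting, wet or missing bedding, isolation, restraint and swimming. Control mice did not. The labels give no ages. The labels number the libraries within each group but do not say that each is a separate mouse, so every p-value below measures the spread between libraries, which may be technical.

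Libraries held 9.06 to 84.8 M deposited counts, and the median library held 27.3 M. Markers of neurons summed to between 3863 and 6770 CPM, and markers of the neighbouring striatum to between 702 and 4501.2 CPM. Choroid plexus markers summed to 3405 CPM in library 5 of MS, against at most 149 CPM in FS, 152 CPM in FC and 160 CPM in MC. The highest sum among libraries numbered 6 and above was 227 CPM, also in MS. Lowest and median sums were 104 and 113 CPM in MS and 50.3 and 97.9 CPM in FS. They were 51.6 and 88.3 CPM in FC and 57.3 and 105 CPM in MC. Libraries FC1, FC6, MC3, FS1 and FS2 stood apart in an earlier analysis of these data, and results that rest on them are given with and without them.

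Foxj1 and Cfap126, which mark ependymal cells, were detected in every library. Foxj1 lies at chr11:116330704-116335499 and Cfap126, which encodes a protein of the doublet interior, at chr1:171113912-171126956 (GRCm38.p6, RefSeq). Foxj1 ran from 9.43 to 55.0 CPM over the libraries and Cfap126 from 2.05 to 15.2 CPM. Fewer ependymal cells in a dissection and less RNA per cell cannot be told apart in such bulk samples.

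Promoters of 53 members were found in the RefSeq table of GRCm38.p6, each with 250 bases before and 50 after the annotated start. The core of the RFX X-box, GTTGCC on either strand, occurred in 21 of the 53 members (39.6%), against 15.2% of the 12715 tested genes with a promoter. The fuller spelling, GTTGC then any 6 bases then AAC on either strand, added after the sequences had been seen, occurred in 7 of the 53 members (13.2%), against 1.5% of those genes. In 4 of the 7 its letters overlap a core. The forkhead words TGTTTAC and TGTTTGT, searched on both strands, occurred in 9.43% of the members and 8.33% of the tested genes. The 4 promoters below are shown because they hold from no core to several, and because members that were higher, lower or did not pass by library number, as described further on, are among them, with every letter that belongs to a core or fuller match in capitals. The first is on the plus strand at chr9:44240427-44240726 (Ccdc153) and the next on the plus strand at chr16:44394549-44394848 (Cfap44). The others are on the minus strand at chr16:90934800-90935099 (Cfap298) and chr11:29247223-29247522 (Cfap36).
Ccdc153: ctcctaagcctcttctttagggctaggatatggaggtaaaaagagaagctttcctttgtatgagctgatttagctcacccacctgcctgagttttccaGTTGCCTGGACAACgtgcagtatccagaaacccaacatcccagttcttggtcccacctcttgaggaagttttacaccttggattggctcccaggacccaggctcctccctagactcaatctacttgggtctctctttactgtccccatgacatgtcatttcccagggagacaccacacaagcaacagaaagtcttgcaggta
Cfap44: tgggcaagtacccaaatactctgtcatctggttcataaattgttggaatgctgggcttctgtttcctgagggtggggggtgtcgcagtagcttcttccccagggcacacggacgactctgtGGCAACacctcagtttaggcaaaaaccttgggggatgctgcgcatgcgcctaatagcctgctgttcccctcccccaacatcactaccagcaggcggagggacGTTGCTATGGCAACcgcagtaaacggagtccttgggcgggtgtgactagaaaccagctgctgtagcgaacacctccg
Cfap298: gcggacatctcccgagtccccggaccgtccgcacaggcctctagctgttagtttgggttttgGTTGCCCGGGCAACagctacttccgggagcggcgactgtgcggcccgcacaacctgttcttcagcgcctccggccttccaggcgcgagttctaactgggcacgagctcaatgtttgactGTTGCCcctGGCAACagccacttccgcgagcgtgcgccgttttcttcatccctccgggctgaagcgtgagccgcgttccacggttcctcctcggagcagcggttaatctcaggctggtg
Cfap36: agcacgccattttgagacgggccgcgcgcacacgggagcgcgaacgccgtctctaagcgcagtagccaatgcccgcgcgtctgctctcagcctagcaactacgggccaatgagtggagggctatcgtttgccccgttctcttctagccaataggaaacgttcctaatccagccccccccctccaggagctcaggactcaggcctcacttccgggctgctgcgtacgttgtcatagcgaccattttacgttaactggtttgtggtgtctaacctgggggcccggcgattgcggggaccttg
Ccdc153, a coiled-coil gene used as an ependymal marker, holds a single core inside a fuller match. Cfap44, which mouse sperm need for their flagella, holds 2 cores, with the second inside a fuller match, and Cfap298, an arm assembly factor, holds 4. Cfap36 holds none. A letter match is a description of the sequence and not evidence of binding.

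Per length of transcript, the members differed widely in level. Cfap36, which encodes a partner of small ARL GTPases, had the highest mean at 53.1 CPM per kilobase. Cfap410, a gene of cilium formation, followed at 20.5, then Cfap20, which encodes a doublet seam protein, at 18.1 and the spoke head gene Rsph9 at 17.2 CPM per kilobase. Ccdc153 stood at 16.9, Foxj1 at 10.7, Rsph1 at 10.6 and Cfap126 at 6.02 CPM per kilobase. The dynein heavy chains were lower per kilobase, with Dnah1 at 4.55 as the highest of them and Dnah8 at 0.039 as the lowest of all members with a length. Lengths were available for 63 members, all but Cfap47.

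After stress, none of the members passed the test in either sex. Foxj1 had a lowest, median and highest level of 13.6, 29.2 and 54.8 CPM in FS, against 10.6, 23.5 and 55.0 CPM in FC. It had 18.02, 22.9 and 49.3 CPM in MS, against 9.43, 24.8 and 50.7 CPM in MC. In both sexes the range of the stressed group lay inside that of the controls. In males the MC range, from 9.43 CPM, began well below the lowest MS library at 18.02 CPM. The log2 difference was 0.21 ± 0.31 (SE) in females and 0.074 ± 0.31 in males (edgeR quasi-likelihood test, Benjamini-Hochberg adjusted p = 1 and 0.966). The interval of 95% around these values covers FS to FC ratios of 0.743 to 1.80 and MS to MC ratios of 0.675 to 1.64. The stress fits held no term for library number. The difference by library number described further on is therefore part of their standard errors and intervals.

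Cfap126 had 2.45, 8.30 and 14.2 CPM as lowest, median and highest in FS, against 2.05, 4.35 and 9.16 CPM in FC. Its difference of 0.64 ± 0.36 was the largest of the members in females and did not pass (adjusted p = 1). In males Cfap126 had 3.16, 5.43 and 10.7 CPM in MS, against 2.22, 5.88 and 15.2 CPM in MC, a difference of -0.16 ± 0.36 (adjusted p = 0.936). Groups overlapped in both sexes. The direct test of male minus female stress effects gave -0.80 ± 0.50 for Cfap126 (adjusted p = 0.845).

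Ccdc153 averaged 21.4 ± 10.6 CPM in FS and 14.8 ± 10.7 CPM in FC, and 17.7 ± 9.502 CPM in MS and 19.7 ± 14.8 CPM in MC (SD, n = 9 stressed and 10 control). Tmem212, another ependymal marker gene, averaged 6.53 ± 4.54 CPM in FS and 5.90 ± 4.83 CPM in FC, and 7.21 ± 4.52 CPM in MS and 7.65 ± 7.08 CPM in MC. In each group the SD was near or above 0.5 times the mean. Stress differences were 0.53 ± 0.42 and -0.16 ± 0.42 for Ccdc153 and 0.15 ± 0.52 and -0.094 ± 0.52 for Tmem212, in females and males in that order, and none passed. With a term for library number (6 and above, up to 5), MS minus MC was 0.12 for Ccdc153 and 0.27 for Tmem212. For Cfap126 it was 0.083. These signs are opposite to those without the term, and none passed.

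**Figure D1:**
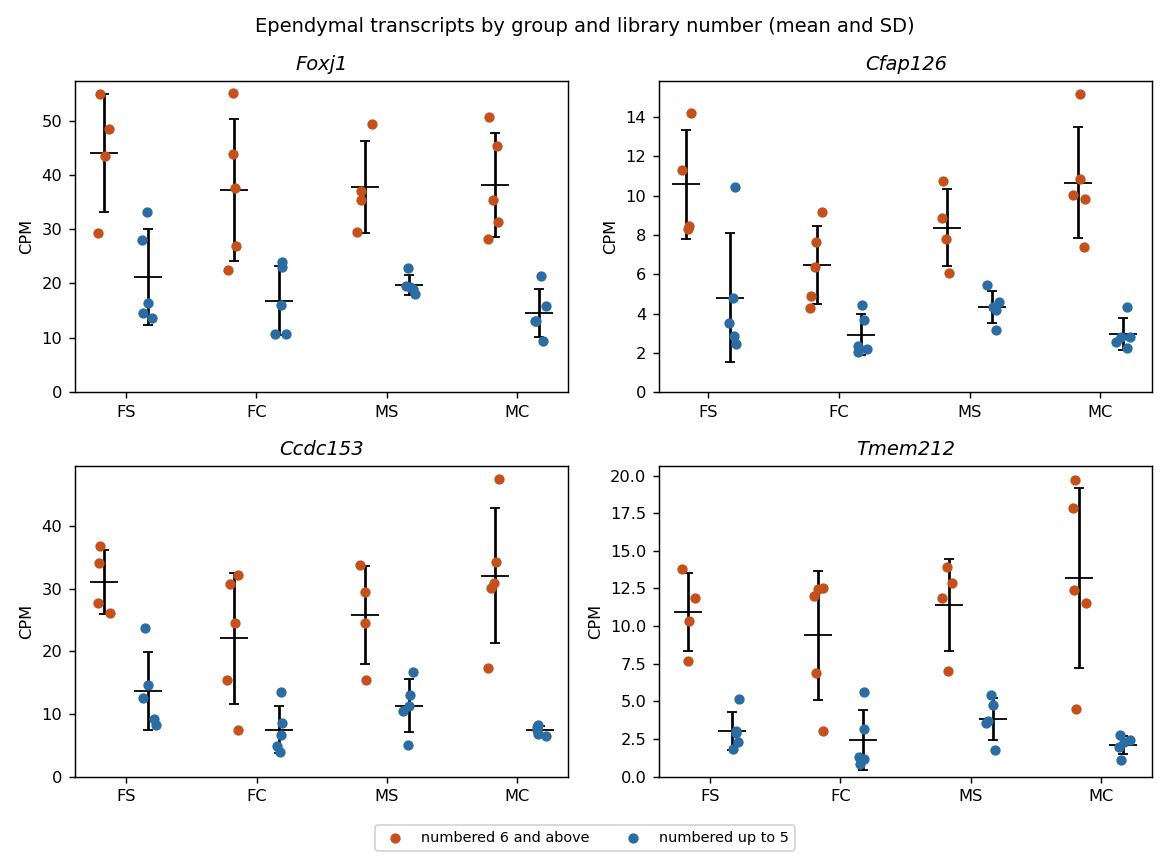
Levels of Foxj1, Cfap126, Ccdc153 and Tmem212 in CPM (vertical axis) by group (horizontal axis), with each point a library, and lines at the mean and bars of 1 SD for each group and number set. Orange points are libraries numbered 6 and above and blue points those numbered up to 5, and within every group the means of the orange points lie above those of the blue.

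Over all 64 members, 0 passed in FS against FC and 0 in MS against MC, beside 0% of all tested genes in each. DESeq2 and limma voom also called 0 members, and 0 members were under an unadjusted p of 0.05 in either sex by edgeR, against 308 and 655 of all tested genes. The median difference was 0.099 in females, with 54 of 64 members above 0, against 0.0098 over all genes, with 8743 of 16309 above 0. It was 0.079 in males, with 39 above 0, against -0.022 over all genes, with 7344 of 16309 above 0. These are descriptions across genes, which are not independent replicates. Single libraries moved these medians and could turn their sign. Leaving out each library in turn gave -0.014 (without FS7) to 0.18 (without FC9) in females and -0.031 (without MS8) to 0.22 (without MC10) in males.

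Motile axoneme genes outside the chosen families were also tested. Of 70 in all, 0 passed in either sex (edgeR), with 2 in FS against FC and 0 in MS against MC under an unadjusted p of 0.05. Their median difference was 0.17 in females, with 65 above 0, and 0.035 in males, with 39 above 0. Of all 16309 tested genes, 8743 and 7344 were above 0 in the same order. These counts are likewise descriptions across genes. Of 11 choroid plexus markers, 0 passed, 9 were under an unadjusted p of 0.05 in MS against MC, and their median there was 1.65, with library 5 of MS far above the rest as given above.

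The members with the smallest p came from several structures of the cilium. In females they were Cfap126, Cfap298 at 0.16 ± 0.099 and the doublet interior gene Cfap53 at 0.46 ± 0.29 among values above 0, and Dnah8, an outer arm heavy chain, at -0.38 ± 0.36 among those below. In males Cfap69, a central apparatus gene, stood at 0.30 ± 0.20, Cfap47 at 0.40 ± 0.29 and the outer arm heavy chain Dnah5 at 0.49 ± 0.40. Cfap36 at -0.20 ± 0.11 and Cfap20 at -0.14 ± 0.075 had the smallest p below 0. Every adjusted p was 1 in females and at least 0.863 in males (edgeR).

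In the male minus female difference of the stress effects, 0 members passed (0% of all tested genes). Cfap20 at -0.25 ± 0.11 and Cfap298 at -0.29 ± 0.14 were the 2 members under an unadjusted p of 0.05, where 736 of all tested genes were (edgeR adjusted p = 0.845 for both). DESeq2 and voom again called 0 members. For stress averaged over the sexes 0 members passed (0% of all tested genes), with a median of 0.11 against -0.0033 over all genes, and 0 were under an unadjusted p of 0.05, where 239 of all tested genes were. DESeq2 and voom called 0 there as well.

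Between the sexes, 0 members passed in MC against FC (0.0674% of all tested genes, of which 0.0491% higher and 0.0184% lower in MC) or in MS against FS (0.0858%, of which 0.0797% higher and 0.00613% lower in MS), and DESeq2 and voom called 0. The median difference was 0.12 in MC against FC, where 0 members and 679 of all tested genes were under an unadjusted p of 0.05, and it was -0.045 among libraries numbered up to 5. The median was 0.11 in MS against FS and -0.014 without FC1, FC6, MC3, FS1 and FS2. Only Cfap298 in MS against FS was under an unadjusted p of 0.05, at -0.25 ± 0.10 (edgeR adjusted p = 0.39), where 1816 of all tested genes were. It had 17.7, 18.8 and 21.5 CPM as lowest, median and highest in MS, against 17.5, 20.3 and 29.0 CPM in FS, so the MS values lay inside the FS range. Cfap298 also shares 46.2% of its exon bases with an annotated gene on the opposite strand, and the strand setting of the counting is not given in the sources used here.

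**Figure D2:**
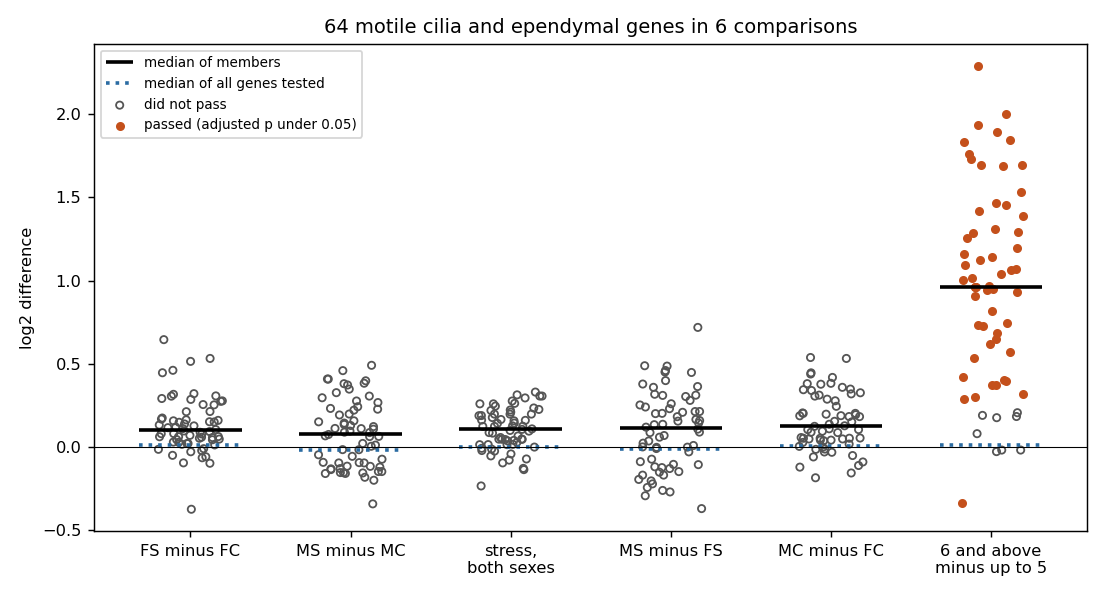
Log2 differences of the 64 members (vertical axis) in 6 comparisons (horizontal axis), each point a gene, filled where the adjusted p is under 0.05, with black lines at the median of the members and dotted lines at the median of all tested genes. No point is filled in the stress and sex comparisons, and 56 of 64 are filled in the comparison of libraries by number.

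The largest differences among these genes followed the library number. Most members were higher in the 18 libraries numbered 6 and above than in the 20 numbered up to 5. The labels do not say what a number marks, and this comparison was chosen with that pattern known. Foxj1 had 22.5, 37.3 and 55.0 CPM as lowest, median and highest in libraries numbered 6 and above, against 9.43, 17.2 and 33.1 CPM in those numbered up to 5. The sets overlapped, with 12 of the 18 libraries numbered 6 and above lying above all 20 of the others. The difference was 1.14 ± 0.13, or 2.21-fold (edgeR adjusted p = 1.84e-08, group means in the fit).

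Of the 64 members, 55 were higher in libraries numbered 6 and above, beside 23.2% of all tested genes, and 1 was lower, beside 22.3% (45.5% in either direction). The remaining 8 did not pass. The median was 0.96 over the members and 0.011 over all genes, and 30 members were at least 2-fold higher, where 2.13% of all tested genes were. No member had fully separate sets, where 0.0184% of all tested genes did. Without FC6 there were 2 such members, Cfap57 and Cfap73, where 0.11% of all tested genes had separate sets. These 2 are named because of that result.

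The difference was present inside each group. Within FS, 42 members were higher and 1 lower (5.65% and 6.63% of all tested genes, 12.3% in either direction), and within FC 21 were higher and 0 lower (2.73% and 2.7%, 5.43% in either). Within MS 23 were higher and 0 lower (2.57% and 3.3%, 5.87% in either), and within MC 43 were higher and 1 lower (8.11% and 8.56%, 16.7% in either). Medians were 1.02 in FS, 0.80 in FC, 0.87 in MS and 1.13 in MC. The test of whether the difference varied between groups was passed by 0 members, with 0 under an unadjusted p of 0.05. It was counted for the members only and rests on 4 or 5 libraries per group and number set. It therefore does not show that the difference was equal in the groups. Foxj1 rose by 1.07 ± 0.28 in FS, 1.14 ± 0.26 in FC, 0.93 ± 0.28 in MS and 1.40 ± 0.27 in MC. Within FC, Foxj1 had 22.5, 37.5 and 55.0 CPM in libraries numbered 6 and above, against 10.6, 15.95 and 23.9 CPM in those up to 5, and within MC it had 28.1, 35.4 and 50.7 CPM against 9.43, 13.1 and 21.4 CPM.

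Outer dynein arms pull the doublets past each other, and 5 of their 7 members were higher. Dnah9, a heavy chain of the distal arm, had 8.19, 18.4 and 37.9 CPM in libraries numbered 6 and above, against 3.06, 6.28 and 10.1 CPM in those up to 5. That is a difference of 1.69 ± 0.16 (edgeR adjusted p = 2.79e-10). Dnah5 had 4.74, 31.3 and 45.7 CPM against 3.06, 13.1 and 21.2 CPM in the same order, a difference of 1.28 ± 0.20. The intermediate chains Dnaic1 and Dnaic2 rose less, by 0.62 ± 0.12 and 0.75 ± 0.14. Dnah8 and Dnah17, heavy chains known mainly from sperm, did not pass, at 0.19 ± 0.25 and 0.17 ± 0.11.

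All 9 inner arm heavy chains, which shape the waveform, were higher, with differences from 0.32 in Dnah7c to 1.94 in Dnah6. Dnah10 had 5.09, 29.8 and 46.3 CPM in libraries numbered 6 and above, against 4.84, 8.01 and 18.1 CPM in those up to 5, a difference of 1.73 ± 0.18 (edgeR adjusted p = 2.47e-09). Dnah1, the highest of the heavy chains per kilobase, rose by 0.73 ± 0.10. Values of Dnah7a, Dnah7b and Dnah7c are less certain, since 18.6% to 37.5% of the 50-base words of each occur in another of the 3. Of the arm assembly factors, Cfap300 rose by 0.29 ± 0.099 and Cfap298 stood at -0.020 ± 0.070 and did not pass.

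All 6 radial spoke genes were higher. Rsph1, a spoke head gene, had 9.24, 16.1 and 23.2 CPM in libraries numbered 6 and above, against 5.74, 8.60 and 16.1 CPM in those up to 5, a difference of 0.96 ± 0.12. Rsph4a and Rsph9, also of the spoke head, rose by 1.13 ± 0.18 and 0.57 ± 0.080. Rsph3a rose by 0.37 ± 0.11, and 54.4% of its 50-base words occur in Rsph3b. In the central apparatus 6 of 8 were higher, with Spef2 at 1.16 ± 0.17, Cfap46 at 1.10 ± 0.16 and Spef1 at 0.40 ± 0.099. Cfap69 and Cfap47 did not pass, at 0.18 ± 0.14 and 0.20 ± 0.20.

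Among the genes of the doublet interior, 9 of 11 were higher. Cfap52 had 0.75, 6.43 and 10.5 CPM in libraries numbered 6 and above, against 0.26, 1.26 and 2.69 CPM in those up to 5. Its difference of 2.29 ± 0.22, or 4.89-fold, was the largest of all members (edgeR adjusted p = 5.13e-10). Cfap126 rose by 1.29 ± 0.16, while Cfap20 at 0.078 ± 0.051 and the tektin Tekt5 at -0.030 ± 0.13 did not pass. Among the 20 genes of other or mixed role, 18 were higher, among them Tmem212 at 2.00 ± 0.22, Ccdc153 at 1.53 ± 0.18, Cfap65 at 1.45 ± 0.14 and Cfap57 at 1.26 ± 0.13. Tmem212 had 3.04, 11.9 and 19.7 CPM in libraries numbered 6 and above, against 0.82, 2.60 and 5.61 CPM in those up to 5.

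Cfap36 was the single member that fell. It had 67.2, 75.1 and 97.3 CPM in libraries numbered 6 and above, against 75.7, 98.4 and 124 CPM in those up to 5, and the sets overlapped. Its difference was -0.34 ± 0.053 (edgeR adjusted p = 2.81e-06). Cfap97, the mouse relative of a fly flagellar gene, did not pass, at -0.020 ± 0.077.

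**Figure D3:**
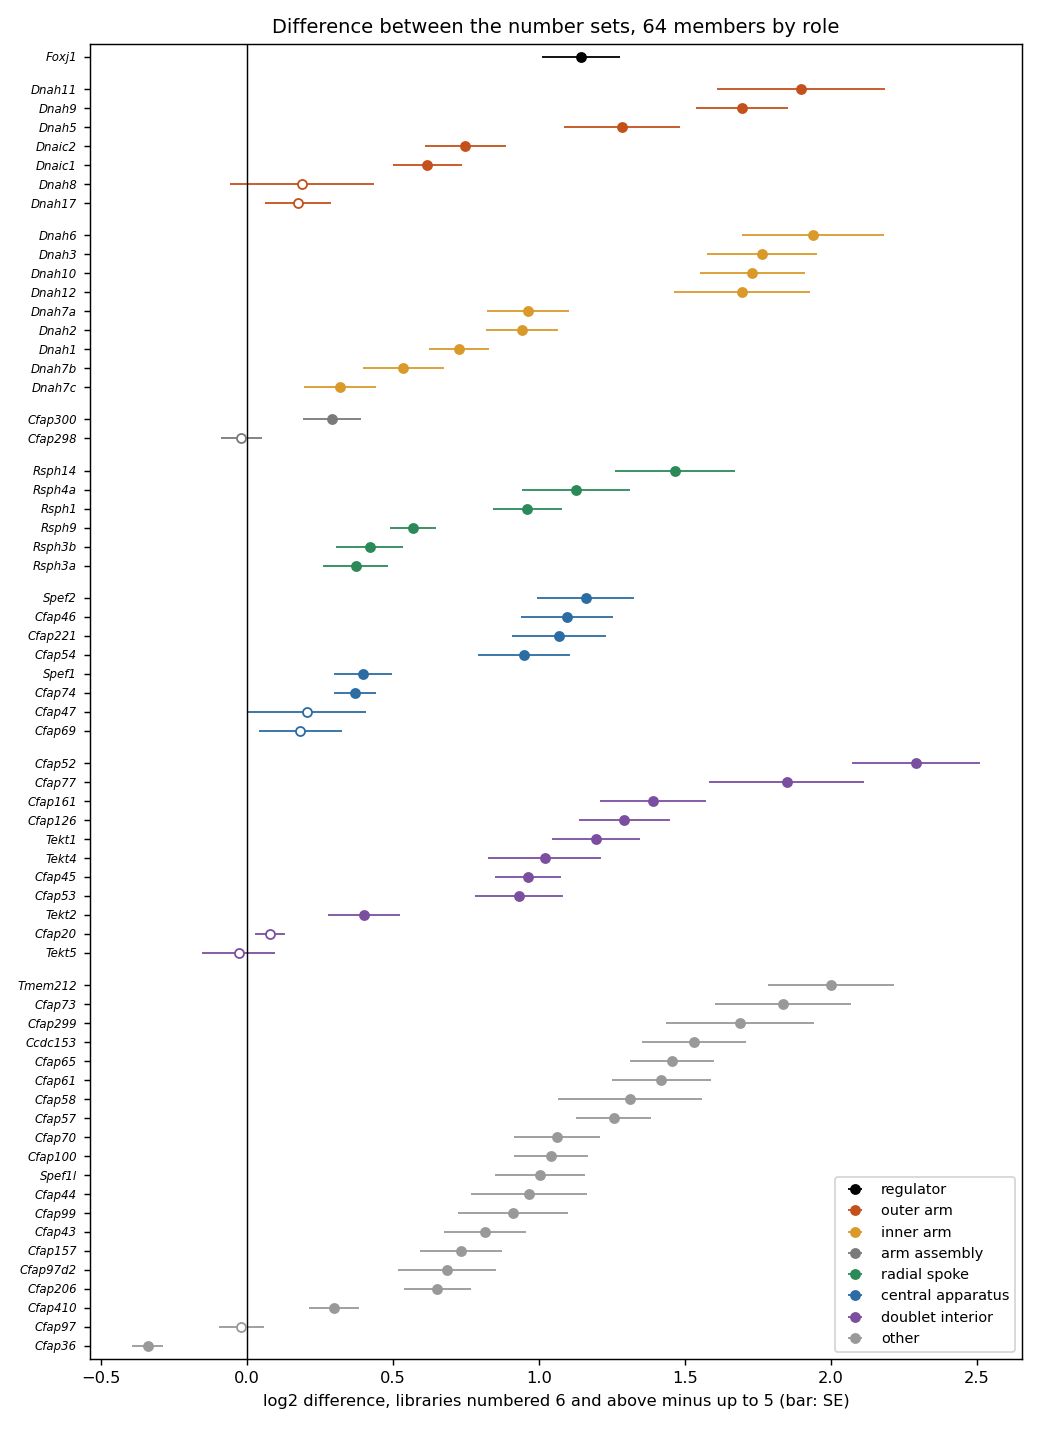
Log2 difference between libraries numbered 6 and above and those numbered up to 5 (horizontal axis) for each of the 64 members (rows, grouped by role), with bars of 1 SE and filled points where the adjusted p is under 0.05. All inner arm and radial spoke genes lie to the right of 0, and Cfap36 is the single filled point on the left.

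Related gene lists were counted in the same comparison, in which 23.2% of all tested genes were higher and 22.3% lower, and the lists were not tested against each other. Of 70 tested motile axoneme genes outside the chosen families, 61 were higher and 0 lower, with a median of 0.99, including the central apparatus gene Hydin at 2.12 ± 0.20 and the inner arm light chain Dnali1 at 1.70 ± 0.15. Of 49 genes of the primary cilium and intraflagellar transport, 20 were higher and 7 lower, with a median of 0.12. Of 19 regulators of multiciliogenesis, 7 were higher, among them Foxj1, itself a member, Trp73 at 1.51 ± 0.16 and Rfx2 at 1.08 ± 0.11. Another 5 were lower, among them E2f5 at -0.33 ± 0.064. Of 20 ependymal genes that are not axonemal, 11 were higher and 4 lower, with Hdc at 1.61 ± 0.14 and Id4 at -0.87 ± 0.099. Aqp4 and Gja1 of this list are also among the astrocyte markers below, and Cd24a is also among the subventricular markers.

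Markers of other cells and regions were counted likewise, to be read against the same 23.2% and 22.3%. All 10 oligodendrocyte markers and all 7 striatal markers were lower in libraries numbered 6 and above, with medians of -0.92 and -0.83. Of 7 lateral septum markers 4 were higher and 1 lower, and of 12 markers of subventricular progenitors and neuroblasts, which sit beside the ependyma, 7 were higher and 1 lower. Astrocyte markers were higher for 4 and lower for 1 of 10, and choroid plexus markers higher for 1 and lower for 0 of 11. Tanycyte markers were higher for 2 and lower for 1 of 6, meningeal markers higher for 2 and lower for 1 of 7, neuronal markers higher for 1 and lower for 2 of 7, and microglial markers higher for 1 and lower for 0 of 6. Of 6 endothelial markers 0 were higher and 0 lower. The part of tissue makeup or of library handling in the difference was not tested.

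Members with long transcripts behaved differently in the 5 libraries that stood apart. The 18 members with transcripts of 6000 bases or more, mostly dynein heavy chains, summed to between 106 and 146 CPM in FC1, FC6, MC3, FS1 and FS2. They summed to between 268 and 626 CPM in the other libraries numbered 6 and above, and to between 156 and 311 CPM in the others up to 5. The ranges of the 5 libraries and the rest did not overlap. Sums over other long genes were not taken, so this separation cannot be called particular to the members. The 35 members under 3000 bases summed to between 361 and 470 CPM in the 5 libraries, between 392 and 597 CPM in the others numbered 6 and above, and between 309 and 373 CPM in the others up to 5.

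Foxj1 was at 22.5 CPM in FC6, the lowest of the libraries numbered 6 and above, against 26.9 to 55.0 CPM in the others of that set. It ran from 21.4 to 33.1 CPM in FC1, MC3, FS1 and FS2, against 9.43 to 23.0 CPM in the others up to 5. Mbp, an oligodendrocyte marker, ran from 9034 to 13349 CPM in the 5 libraries, against 1830 to 6337 and 3054 to 6429 CPM in the others. The measure by which the 5 libraries stood apart in the earlier analysis is not given here. Their separation by Mbp may therefore follow from how they were picked. Across all tested genes with a length, Spearman's rho between length and a library's deviation from the mean level was -0.41 to -0.25 in the 5 libraries, and from -0.43 to 0.35 and from -0.088 to 0.27 in the others, in the same order. MC7, which is not among the 5, had the lowest rho of all libraries at -0.43, and its long members summed to 313 CPM. The part of these measures in the low long members was not tested.

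**Figure D4:**
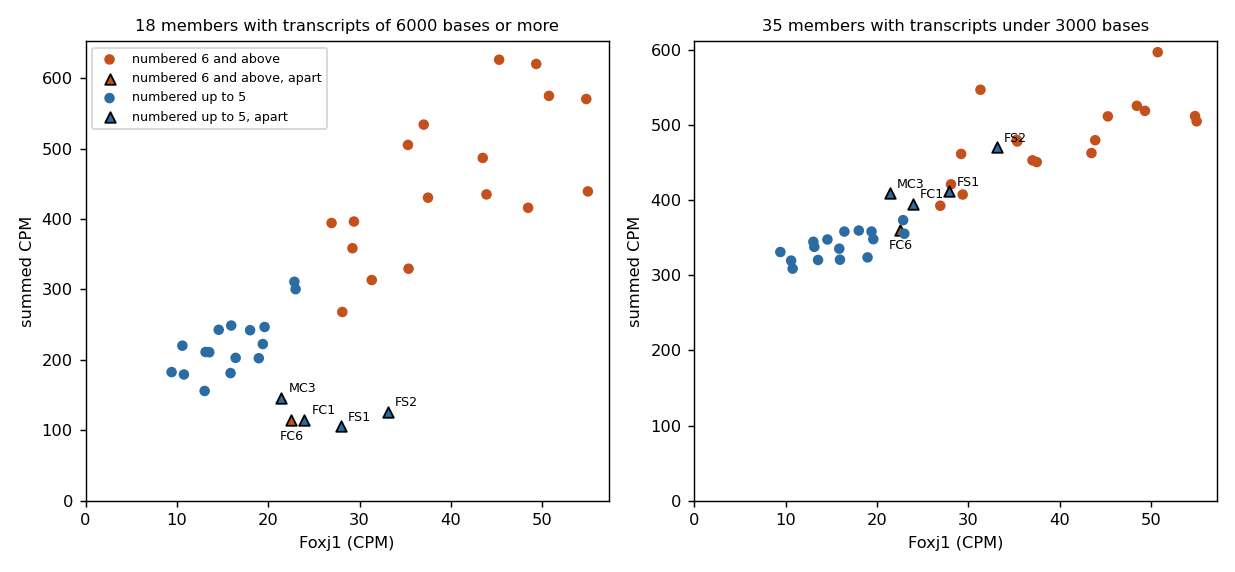
Summed level of members with long (left) and short (right) transcripts in CPM (vertical axes) against Foxj1 in CPM (horizontal axes), each point a library, orange for numbers 6 and above and blue for up to 5. Triangles are FC1, FC6, MC3, FS1 and FS2, which lie below all other libraries for the long members and not for the short ones. Long genes outside the members are not shown.

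The difference by library number was also found without these libraries. Without them 56 members were higher and 1 lower, with a median of 0.97, and Foxj1 rose by 1.35 ± 0.12. The share of all tested genes was not taken for that fit, and with all libraries 23.2% were higher and 22.3% lower. With all libraries the difference was found among short and long members. Of 11 members under 1500 bases 10 were higher, and of 18 from 6000 bases 16 were. Among all tested genes of those lengths 13.6% and 26.7% were higher. Spearman's rho between length and difference was 0.036 over 63 members, a description across genes, which are not independent replicates.

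Members were next compared with Foxj1 across libraries, inside each number set. The 4 groups were pooled and group means were not removed, so differences between groups are part of each r and permutation test. In the 18 libraries numbered 6 and above, the median Pearson r of 63 members with Foxj1 was 0.67, and 48 members exceeded 0.5, where 6.47% of all tested genes did. In the 20 libraries numbered up to 5 the median was 0.017, and 15 exceeded 0.5, where 22.2% did, so the members' share of 23.8% was near that of all genes. Without the 5 libraries, in an analysis added after seeing the data, the medians were 0.54 in 17 libraries and 0.50 in 16. Then 38 and 32 members exceeded 0.5, where 3.97% and 6.38% of all tested genes did.

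Permutation tests with 100000 resamples, two-sided and adjusted over 126 relations, were passed by 47 positive and 0 negative relations in libraries numbered 6 and above. In those numbered up to 5, 15 positive and 5 negative passed, and without the 5 libraries 33 and 27 positive and 0 negative passed. The tests were run on members only, so no share of all tested genes can be set beside these counts. In libraries numbered up to 5 the members' share over an r of 0.5 was near that of all genes, as given above. Leaving out the 2 libraries farthest from the median of Foxj1 gave median r values of 0.61 and 0.085. Of the 18 long members 14 had negative r in libraries up to 5, with a median of -0.14, and without the 5 libraries 0 had, with a median of 0.47. Other long genes were not examined in this way, so the pattern cannot be called particular to the members.

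Rsph1, Dnaic2 and Cfap126 had the highest mean of the r values of the 2 number sets. The Pearson r of Rsph1 was 0.78 (Spearman's rho 0.80, permutation p = 7.0e-05 and 0.00014, adjusted 0.000464 and 0.00136) in libraries numbered 6 and above. In those up to 5 it was 0.84 (rho 0.81, permutation p = 1.0e-05, the smallest that the permutations can give, and 4.0e-05, adjusted 0.00014 and 0.0007). Without the 2 farthest libraries r was 0.69 and 0.78. Dnaic2 had r of 0.81 and 0.80 and Cfap126 had r of 0.74 and 0.85 in the same order, and each passed in both sets. Other members exceeded them in a single set, as Cfap65 did with r of 0.93 in libraries numbered 6 and above, against 0.39 in those up to 5. Without the 5 libraries Cfap65 had r of 0.93 and 0.87, above the 0.73 and 0.79 of Rsph1.

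The lowest mean r values belonged to Cfap36, Cfap97 and Cfap300. Cfap36 had r of -0.42 in libraries numbered 6 and above (permutation p = 0.0827, adjusted 0.137) and -0.17 in those up to 5 (permutation p = 0.479, adjusted 0.597), so neither passed. Cfap97 had r of 0.24 and -0.76, and the second of these passed (permutation p = 3.0e-05, adjusted 0.000236) and was -0.52 without the 5 libraries (adjusted p = 0.0672). Cfap300 had r of 0.39 and -0.65, and the second was -0.18 without the 5 libraries. Cfap36 and Cfap97 were also among the members that were not higher in libraries numbered 6 and above, while Cfap300 was higher. Over 63 members, Spearman's rho between the mean r and the difference by library number was 0.39, a description across genes.

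**Figure D5:**
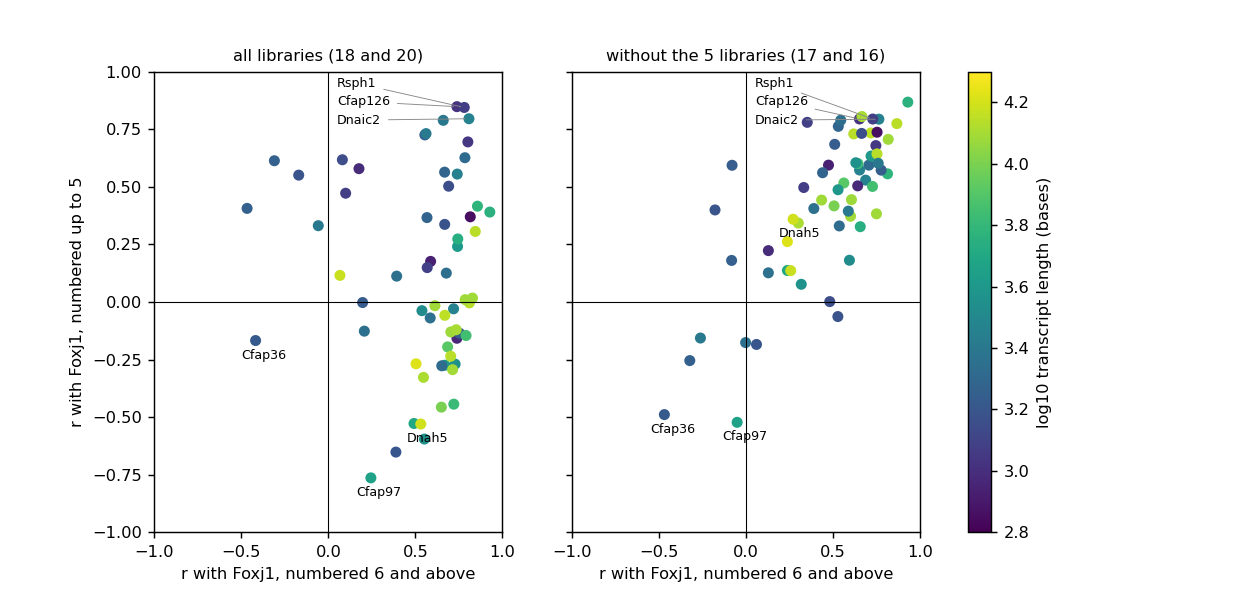
Pearson r of each member with Foxj1 in libraries numbered 6 and above (horizontal axes) and in those numbered up to 5 (vertical axes), with all libraries on the left and without FC1, FC6, MC3, FS1 and FS2 on the right. Points are the 62 members with a length, coloured by log10 transcript length in bases, and the long members lie below 0 on the vertical axis only on the left, where 14 of 18 do. Long genes outside the members are not shown.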

How the data were processed

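RNA from adBNST microdissections of wild-type mice was poly-A selected and made into stranded libraries, per the labels' protocols. The authors deposited raw counts of reads per gene for 38 libraries in a single table. STAR, featureCounts, DESeq2 and mm10 are named, per the submitters' processing notes. For these tools, the sources used here give no version, annotation or strand setting. No column of another sample was present (0 columns). The table held 3439 genes with no count.

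Counts were tested with edgeR 4.0.16 (R 4.3.3, limma 3.58.1): filterByExpr by group, TMM, quasi-likelihood tests on means of the 4 groups, and Benjamini-Hochberg adjustment over 16309 genes at 0.05, after the filter removed 8921. A term for library number (6 and above, up to 5) was added for that comparison, and a mean per group and number set gave the values inside groups. CPM used effective library sizes, and correlations used log2 CPM with a prior count of 2. A single count was worth 0.012 to 0.11 CPM, so low members are less precise. Gene positions and promoters came from RefSeq tables of GRCm38.p6, and transcript lengths, shared words and exon overlaps from GENCODE mouse release M21 of the same assembly. Descriptions used Python 3.11.15, pandas 2.3.3, numpy 2.4.6, scipy 1.17.1 and matplotlib 3.10.9. Scripts were tested on simulated data.

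Members and gene lists were chosen with earlier results of these data known. Named genes were Foxj1, Cfap126, Ccdc153 and Tmem212, the family members of highest level, the 5 passing members of smallest p in each direction (3 where none passed), the 3 members of highest and of lowest mean r with Foxj1, and genes at the ends of each class's range. Alternatives were DESeq2 1.42.0 and its size factors, voom, no filter, a replicate block, a number term, single number sets, a minimum of 1 CPM, and leaving out libraries.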

Additional observations from a re-analysis of the deposited data

Results flagged for a closer look

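For 5 of the named genes a single library stood far from the rest of its group, with a gap to its nearest neighbour larger, as a share of the group's range, than Dixon's 95% limit. Dnah8, an outer arm heavy chain, was at 0.93 CPM in library 8 of FS, against 0.157 to 0.497 CPM in the other 8 libraries of that group. Dnah17, another outer arm heavy chain, was at 7.82 CPM in the same library, against 3.01 to 4.25 CPM in the others.

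The doublet tektin gene Tekt5 was at 15.8 CPM in library 3 of MC, against 6.66 to 10.9 CPM in the other libraries of MC. Cfap69 of the central apparatus was at 50.4 CPM in library 4 of MS, against 27.9 to 39.1 CPM in the other libraries of MS. Cfap47, also of the central apparatus, was at 0.349 CPM in library 6 of FC, against 3.47 to 6.66 CPM in the other libraries of FC. Over all members, 9 of 256 tests of a gene in a group passed this limit, where chance passes about 1 in 20.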

How the results depend on the processing

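The calls of the stress and sex comparisons did not turn on the settings tried: 0 members passed in them under every alternative run. Calls of the correlation with Foxj1 did turn in libraries numbered up to 5. There 15 positive and 5 negative relations passed with all libraries. Without FC1, FC6, MC3, FS1 and FS2, 27 positive and 0 negative passed there. By library number 54 to 57 of 64 members were higher, and 52 of the 60 with a mean of at least 1 CPM, except inside single groups. The share of all tested genes was not taken for the fits with other settings or with libraries left out. DESeq2, its size factors and the unfiltered table turned no direction of a named gene. Values below, none of which passed, are log2 differences that changed sign, and the cause was not tested. With voom they were 0.025 for Rsph3a in FS minus FC, 0.27, 0.089 and 0.42 for Cfap126, Ccdc153 and Tmem212 in MS minus MC, 0.020 for Rsph3a averaged over sexes, 0.10 for Foxj1 in MC minus FC, and 0.021, 0.046 and -0.011 for Foxj1, Cfap126 and Tmem212 in MS minus FS. With a term for number set they were 0.083, 0.12 and 0.27 for Cfap126, Ccdc153 and Tmem212 in MS minus MC, and 0.0062 for Tmem212 in the difference of stress effects. Among libraries numbered up to 5 they were 0.58, 0.61 and 0.84 for the same 3 genes in MS minus MC, 0.13 and 0.53 for Foxj1 and Tmem212 in the difference of stress effects, 0.026 for Cfap410 averaged over sexes, and -0.012, -0.010 and -0.20 for Cfap126, Ccdc153 and Tmem212 in MC minus FC. Among those numbered 6 and above they were 0.036 and 0.22 for Rsph3a and Cfap69 in FS minus FC, -0.014 for Foxj1 in MS minus MC, -0.12 for Dnah7b in the difference of stress effects, -0.0024 for Tmem212 averaged over sexes, and 0.033 and 0.13 for Foxj1 and Dnah7b in MC minus FC. Without FC1, FC6, MC3, FS1 and FS2 they were -0.0096 for Tmem212 averaged over sexes and -0.086 for Tmem212 in MS minus FS, and the median r with Foxj1 in libraries numbered up to 5 was 0.50. Inside FC 21 members and inside MS 23 were higher, fewer than over all libraries, on fewer libraries.

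The labels do not say that libraries of the same number belong together. Their deviations from group means correlated over 0.1 in 7 of 9 pairs of FS and FC, 6 of 9 of MS and MC, 7 of 10 of MC and FC and 8 of 9 of MS and FS, which is most pairs but not all. Pairs of the same number always lie in the same number set, and the difference between the sets stays in these deviations. These correlations therefore cannot decide whether libraries are paired, and the libraries were not treated as paired. With the number as a replicate block 0 members passed, the median was 0.14 in FS minus FC and 0.21 in MS minus MC, and the values that changed sign were 0.089, 0.16 and 0.42 for Cfap126, Ccdc153 and Tmem212 in MS minus MC and 0.042 for Tmem212 in the difference of stress effects.

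Leaving out each library in turn gave ranges that crossed 0. In FS minus FC these were -0.066 to 0.34 for Tmem212 and -0.16 to 0.025 for Cfap69. In MS minus MC they were -0.074 to 0.23 for Foxj1, -0.30 to 0.056 for Cfap126, -0.33 to 0.086 for Ccdc153 and -0.27 to 0.18 for Tmem212. In the difference of stress effects they were -0.29 to 0.019 for Foxj1 and -0.43 to 0.033 for Tmem212. They were -0.072 to 0.16 for Tmem212 averaged over sexes, -0.19 to 0.14 for Foxj1 in MC minus FC and -0.044 to 0.36 for Tmem212 in MS minus FS. Median standard errors of 0.31 in each sex, from the fit without a term for library number, limit what could be seen under stress.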
